A study of Mus musculus with 9 samples.

Results

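The metallothioneins and the genes of zinc regulation described here are Mt1, Mt2, Mt3, Mt4, Mtf1 and Slc30a1. They were chosen by name, and all 6 are among the 20512 gene symbols of the deposited expression table. In tongues carrying an inducible Bmi1 transgene, Mt1 and Mt2 fell to 0.794-fold and 0.755-fold of the control level. Mt4, the most abundant of the 6 per length of transcript, lay at 0.699-fold of control in the same direction, with an adjusted p of 0.0559. Mt3, Mtf1 and Slc30a1 did not pass the test. The 4 metallothioneins have short transcripts, and short transcripts stood lower in the transgene libraries as a group. When the trend with transcript length was taken out, none of the 6 genes passed in the same fit.

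Metallothioneins are small proteins, rich in cysteine, whose sulphur atoms bind zinc and copper. Zinc in the cell activates the zinc-finger transcription factor Mtf1, which binds metal response elements and drives Mt1, Mt2 and the zinc exporter Slc30a1. Mt1 and Mt2 are made in most tissues and are also induced by glucocorticoids and oxidative stress. Mt3 is best known in brain, and Mt4 in stratified squamous epithelia such as that of the tongue.

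RNA of mouse tongue was sequenced in 9 libraries. The 5 control libraries came from animals with K14-rtTA only, a transcription activator that works in the presence of doxycycline and is driven by the keratin 14 promoter, which is active in basal cells of stratified epithelia. The 4 transgene libraries came from animals with K14-rtTA and TREFLBmi-1, a Bmi1 transgene under that activator's control. The Bmi1 protein belongs to a Polycomb complex that represses transcription. Both groups were about 6 weeks old, were C57/Bl6 crossed with FVB/NJ, and drank 2 mg/mL doxycycline for 1 week, so the activator and the drug were common to control and transgene. The transgene acts in keratin 14-expressing cells while the RNA is that of the tongue as a tissue, with muscle, connective tissue and vessels. Fewer cells of a type and less RNA per cell cannot be told apart in such samples. Nothing in the labels says that the libraries came from separate animals, so a p-value reflects only how far libraries of a group differ, which may be technical.

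The deposited values are log2 normalized expression levels, with no read counts, so the depth of the libraries is unknown. Variation within the groups occupied 5 of the 7 directions that 9 libraries in 2 groups allow. It was reduced by the removal of the means of 3 sets of libraries, called strata here, and no label says what they stand for. Stratum 1 holds control 1 and transgene 1, stratum 2 holds controls 2 and 3 with transgene 2, 3 and 4, and stratum 3 holds controls 4 and 5. Differences between groups were therefore tested with limma with terms for group and stratum, over 14490 genes with a mean log2 level of at least 3, and a gene was called at a Benjamini-Hochberg adjusted p under 0.05. The exact permutation tests quoted beside it are two-sided and shuffle library labels over 126 splits, or over 20 splits within strata. Their smallest possible p-values are 0.00794 and 0.05, and since the removal of the stratum means used the groups they are not strictly exact. Bmi1, the transgene's own gene, ranged from 10.21 to 10.74 in the controls. It stood at 12.49, 12.05, 14.87 and 11.94 in transgene libraries 1 to 4, a log2 difference of 2.44 (SE 0.60, adjusted p = 0.0672). All 4 transgene libraries were above every control, and the spread between them was wide.

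The coding sequences of the 4 metallothioneins show the feature that names the family and are printed first. They are those of the principal transcripts of GENCODE release M21 (build GRCm38, chromosome 8), with every cysteine codon (TGC or TGT) in capitals.
Mt1 coding sequence: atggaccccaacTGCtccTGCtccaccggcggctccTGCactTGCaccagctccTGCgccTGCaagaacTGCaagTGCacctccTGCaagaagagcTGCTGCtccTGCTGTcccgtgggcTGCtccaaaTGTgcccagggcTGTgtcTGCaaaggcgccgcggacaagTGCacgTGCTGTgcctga
Mt2 coding sequence: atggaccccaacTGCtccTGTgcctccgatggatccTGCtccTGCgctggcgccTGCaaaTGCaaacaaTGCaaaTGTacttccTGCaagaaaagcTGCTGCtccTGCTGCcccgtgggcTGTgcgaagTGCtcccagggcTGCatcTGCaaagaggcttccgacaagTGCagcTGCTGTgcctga
Mt3 coding sequence: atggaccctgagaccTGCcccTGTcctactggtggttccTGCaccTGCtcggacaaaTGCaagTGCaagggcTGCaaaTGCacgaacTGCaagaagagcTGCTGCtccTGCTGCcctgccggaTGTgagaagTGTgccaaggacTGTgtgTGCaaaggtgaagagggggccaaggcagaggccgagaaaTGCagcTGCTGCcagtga
Mt4 coding sequence: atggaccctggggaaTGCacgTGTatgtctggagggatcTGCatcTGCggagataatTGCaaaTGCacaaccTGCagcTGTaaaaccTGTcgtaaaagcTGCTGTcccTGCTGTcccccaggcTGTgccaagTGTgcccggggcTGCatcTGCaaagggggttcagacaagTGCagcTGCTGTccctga
Each of the 4 holds 20 cysteine codons, of 61 codons before the stop in Mt1 and Mt2, 68 in Mt3 and 62 in Mt4. Each has 7 places where a cysteine follows another cysteine after a single residue. Of the 6 pairs, Mt1 and Mt2 share most of their aligned bases, at 79.6%, and Mt1 and Mt4 fewest, at 66.7%. No stretch of 50 bases, the read length, is shared between any pair of the 4 transcripts, nor with another gene's annotated transcripts. The longest run of identical bases is 27, between the coding sequences of Mt1 and Mt3. Reads without mismatches from annotated transcripts of these genes could thus be told apart.

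The promoters of the 5 genes with a metal response element core are printed because Mtf1 acts through that motif. The windows are RefSeq's, of 300 bases each (250 before the annotated start and 50 from it), in build GRCm38.p6, on the plus strand, which is the coding strand of each gene. They lie at chr8:94178839-94179138 for Mt1, chr8:94172368-94172667 for Mt2, chr8:94152357-94152656 for Mt3, chr8:94136954-94137253 for Mt4 and chr1:191906531-191906830 for Slc30a1. Capitals mark the metal response element core, searched as TGCACNC or TGCGCNC on both strands, so that a core on the opposite strand reads as its reverse complement.
Mt1 promoter: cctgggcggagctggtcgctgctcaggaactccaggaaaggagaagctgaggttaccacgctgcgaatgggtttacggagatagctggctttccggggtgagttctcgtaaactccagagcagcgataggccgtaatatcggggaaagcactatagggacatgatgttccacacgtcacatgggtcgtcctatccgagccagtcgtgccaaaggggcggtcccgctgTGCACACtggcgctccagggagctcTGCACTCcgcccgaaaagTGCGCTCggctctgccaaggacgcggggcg
Mt2 promoter: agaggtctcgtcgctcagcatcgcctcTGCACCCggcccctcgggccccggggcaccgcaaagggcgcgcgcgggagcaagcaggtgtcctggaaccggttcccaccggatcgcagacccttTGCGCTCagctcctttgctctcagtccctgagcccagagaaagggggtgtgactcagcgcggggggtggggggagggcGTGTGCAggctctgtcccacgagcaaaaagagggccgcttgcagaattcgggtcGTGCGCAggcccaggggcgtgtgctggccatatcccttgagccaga
Mt3 promoter: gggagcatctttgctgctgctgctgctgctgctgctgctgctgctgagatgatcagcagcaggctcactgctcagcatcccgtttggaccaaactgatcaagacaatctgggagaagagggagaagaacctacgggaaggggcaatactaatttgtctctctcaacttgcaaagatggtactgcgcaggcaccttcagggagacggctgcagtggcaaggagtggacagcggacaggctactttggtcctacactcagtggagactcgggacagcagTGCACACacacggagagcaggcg
Mt4 promoter: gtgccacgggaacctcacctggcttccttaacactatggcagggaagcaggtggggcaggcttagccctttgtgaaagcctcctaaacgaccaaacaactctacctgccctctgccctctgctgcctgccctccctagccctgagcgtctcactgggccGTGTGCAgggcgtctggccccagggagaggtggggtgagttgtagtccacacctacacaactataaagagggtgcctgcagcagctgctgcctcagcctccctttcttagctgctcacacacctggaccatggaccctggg
Slc30a1 promoter: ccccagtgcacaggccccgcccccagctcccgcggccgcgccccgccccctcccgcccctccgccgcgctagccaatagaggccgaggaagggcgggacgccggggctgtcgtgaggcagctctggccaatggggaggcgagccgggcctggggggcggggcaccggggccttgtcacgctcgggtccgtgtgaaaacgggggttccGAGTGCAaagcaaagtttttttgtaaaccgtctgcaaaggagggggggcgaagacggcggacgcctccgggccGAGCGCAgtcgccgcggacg
The Mt2 window holds 4 cores, the Mt1 window 3 and the Slc30a1 window 2, while those of Mt4 and Mt3 hold 1 each and that of Mtf1 none. Before the annotated start lie 3 cores of Mt2 and 1 each of Mt1, Slc30a1 and Mt4, and none of Mt3. No cores overlap each other. Of the 32851 promoter windows in the RefSeq table, 25.7% hold at least 1 core, 7.11% at least 2, 1.97% at least 3 and 0.517% at least 4. A match is a description of the letters and not a measured binding site, and bases outside the windows were not searched.

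**Figure D1:**
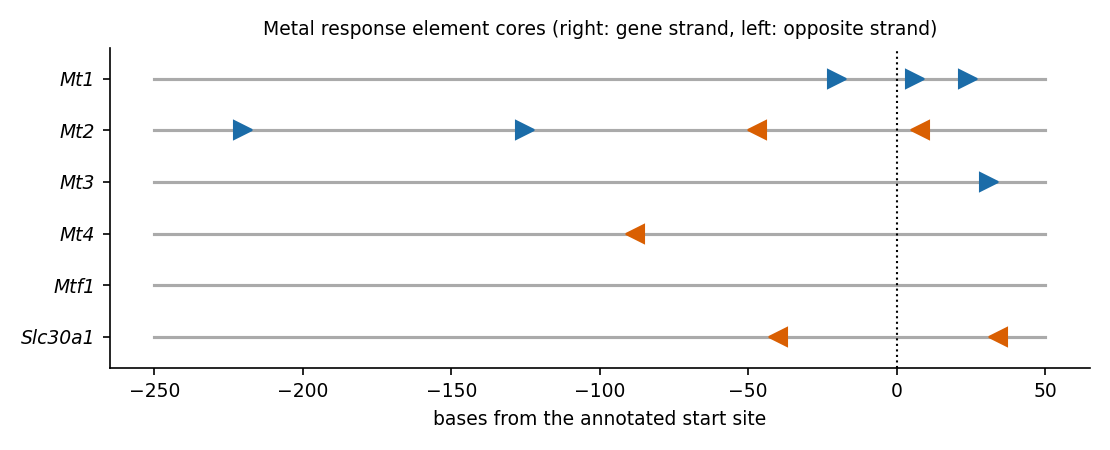
Position of metal response element cores in the 300-base promoter windows of the 6 genes, in bases from the annotated start, with the strand of each core marked. Mt2 has 4 cores, Mt1 has 3, Slc30a1 has 2, Mt3 and Mt4 have 1 each and Mtf1 has none.

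Mt1 encodes a metallothionein made in most tissues. Its log2 level was 11.50, 11.52, 11.43, 11.44 and 11.53 in controls 1 to 5 and 11.13, 11.21, 11.16 and 11.10 in transgene libraries 1 to 4. All transgene libraries lay below all controls, and the spread within each group was small, with means of 11.48 ± 0.05 (SD, n = 5) and 11.15 ± 0.05 (SD, n = 4). The log2 difference was -0.33 (SE 0.05, 95% interval -0.44 to -0.22), a percent change of -20.6 (interval -26.4 to -14.3), with an adjusted p of 0.0407. The difference was -0.37 in stratum 1 and -0.32 in stratum 2. The exact permutation p was 0.00794 over all splits and 0.05 within strata, the smallest each can give.

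Mt2, which is co-induced with Mt1 in many settings, stood at 12.16, 12.24, 12.14, 12.12 and 12.24 in controls 1 to 5 and at 11.79, 11.90, 11.62 and 11.79 in transgene libraries 1 to 4. The groups did not overlap, and transgene 3, the library with the most Bmi1, was the lowest. The means were 12.18 ± 0.06 (SD, n = 5) and 11.78 ± 0.12 (SD, n = 4). The log2 difference was -0.40 (SE 0.07, 95% interval -0.56 to -0.25), a percent change of -24.5 (interval -32.2 to -15.8), with an adjusted p of 0.0418. Stratum 1 gave -0.37 and stratum 2 gave -0.42, and the exact permutation p was again 0.00794 over all splits and 0.05 within strata.

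Mt4, the squamous epithelial metallothionein, stood at 13.69, 13.97, 13.89, 13.85 and 13.85 in controls 1 to 5 and at 13.49, 13.38, 13.01 and 13.45 in transgene libraries 1 to 4. The groups did not overlap, and transgene 3 was again the lowest. The log2 difference was -0.52 (SE 0.11, 95% interval -0.77 to -0.26), the largest among the 6 genes, but its adjusted p of 0.0559 missed the threshold. The difference was -0.20 between the 2 libraries of stratum 1 and -0.65 in stratum 2. The spread between transgene libraries (SD 0.22, n = 4) was wider than between controls (SD 0.10, n = 5). The exact permutation p was 0.00794 over all splits and 0.05 within strata.

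Mt3 was the lowest metallothionein, at 7.81, 7.80, 7.72, 7.71 and 7.85 in controls 1 to 5 and at 7.61, 7.51, 7.72 and 7.72 in transgene libraries 1 to 4. Transgene 3 and 4 lay within the range of the controls, and the other two lay below it. The log2 difference of -0.14 (SE 0.07, 95% interval -0.29 to 0.02) did not pass, with an adjusted p of 0.266 and an exact permutation p of 0.0556 over all splits. Within strata the exact permutation p was 0.05, the smallest it can be.

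Mtf1, the zinc sensor, stood at 9.75, 9.66, 9.77, 9.72 and 9.73 in controls 1 to 5 and at 9.83, 9.86, 9.82 and 9.88 in transgene libraries 1 to 4. Every transgene library was above every control, the opposite order to that of Mt1, Mt2 and Mt4. The log2 difference was 0.12 (SE 0.05, 95% interval 0.02 to 0.23), with an adjusted p of 0.166, so it was not called. Its exact permutation p was 0.00794 over all splits and 0.05 within strata. Slc30a1, which exports zinc across the plasma membrane and is the Mtf1 target most used beside the metallothioneins, stood at 10.45, 10.31, 10.46, 10.39 and 10.42 in controls 1 to 5 and at 10.36, 10.38, 10.33 and 10.54 in transgene libraries 1 to 4. The groups overlapped over their range. Its log2 difference was -0.01 (SE 0.06, 95% interval -0.15 to 0.14), with an adjusted p of 0.964 and exact permutation p-values of 0.921 over all splits and 0.9 within strata. That interval spans a fold of 0.903 to 1.1, so the values do not exclude a change within those bounds. The bounds are not a limit of detection, and a larger change could also have gone uncalled.

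**Figure D2:**
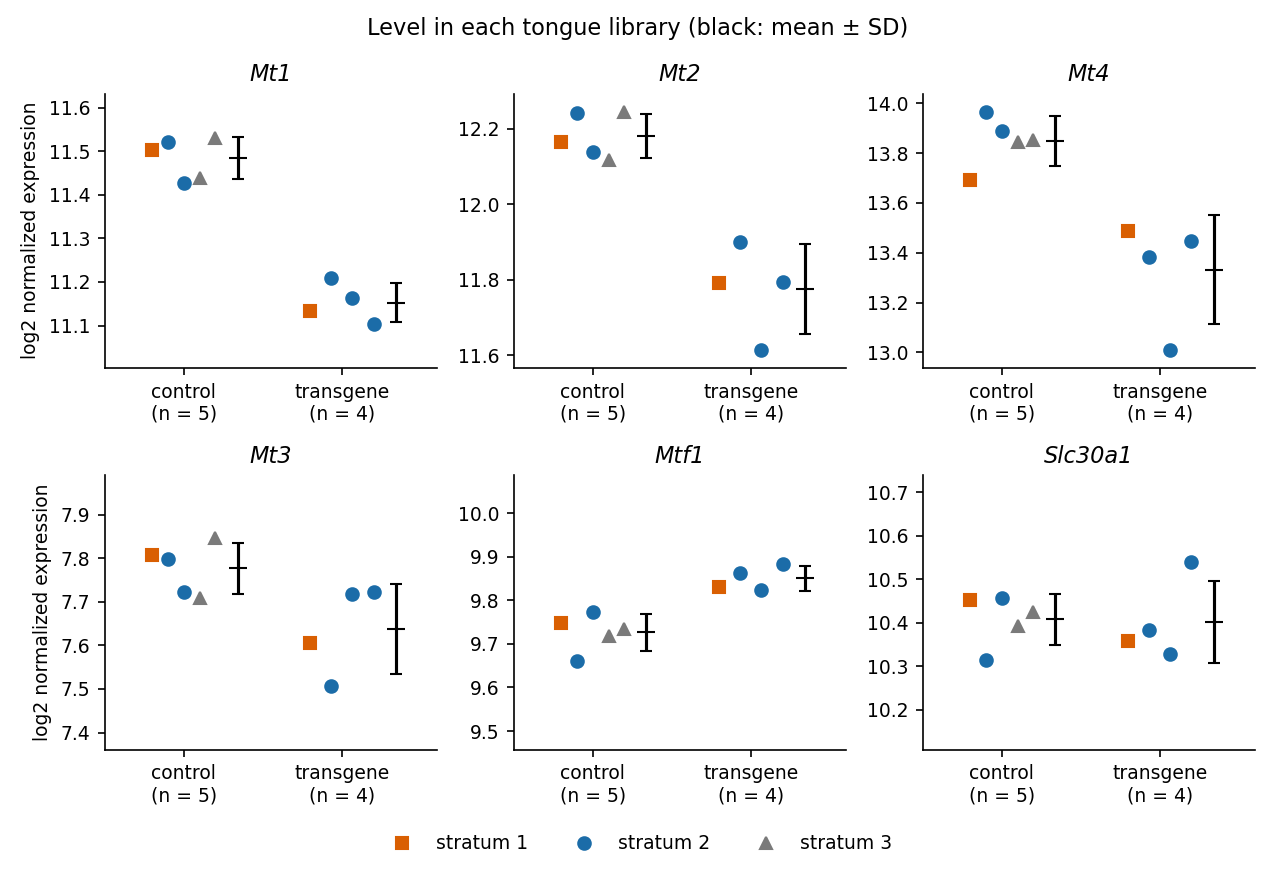
Deposited log2 level of the 6 genes in each of the 5 control and 4 transgene libraries, with the mean and SD of each group. Each panel has its own log2 axis. Transgene points lie below all controls for Mt1, Mt2 and Mt4 and above them for Mtf1, and overlap with them for Mt3 and Slc30a1.

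Of the 6 genes, 2 were called (Mt1 and Mt2, both lower). Over all 14490 tested genes, 1.66% were called, 1.15% as lower and 0.511% as higher. With group as the only term, which counts 7 residual degrees of freedom where the values hold 5, Mt1, Mt2 and Mt4 were called lower (adjusted p of 0.000801, 0.00141 and 0.00434) and Mtf1 higher (0.0183). That fit called 24.4% of all tested genes, 12.7% as lower and 11.7% as higher. Groups without overlap were common as well, since 11.6% of tested genes had all transgene libraries below all controls, as did 3 of the 6, and 9.76% had them all above, as did 1 of the 6, which makes 21.3% in either direction against 4 of the 6. The calls of Mt1 and Mt2 were not kept in every fit that left out 1 library. They were kept without control 1, transgene 1 or transgene 4, and lost without any of controls 2 to 5 or transgene 2 or 3. Without control 4 or 5 the differences stayed at -0.33 and -0.40, while the calls over all tested genes fell from 240 to 9. Over the 9 fits without 1 library the adjusted p of Mt1 ran from 0.0131 to 0.144 and that of Mt2 from 0.0196 to 0.174. The log2 differences ran from -0.37 to -0.31 and from -0.45 to -0.35.

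**Figure D3:**
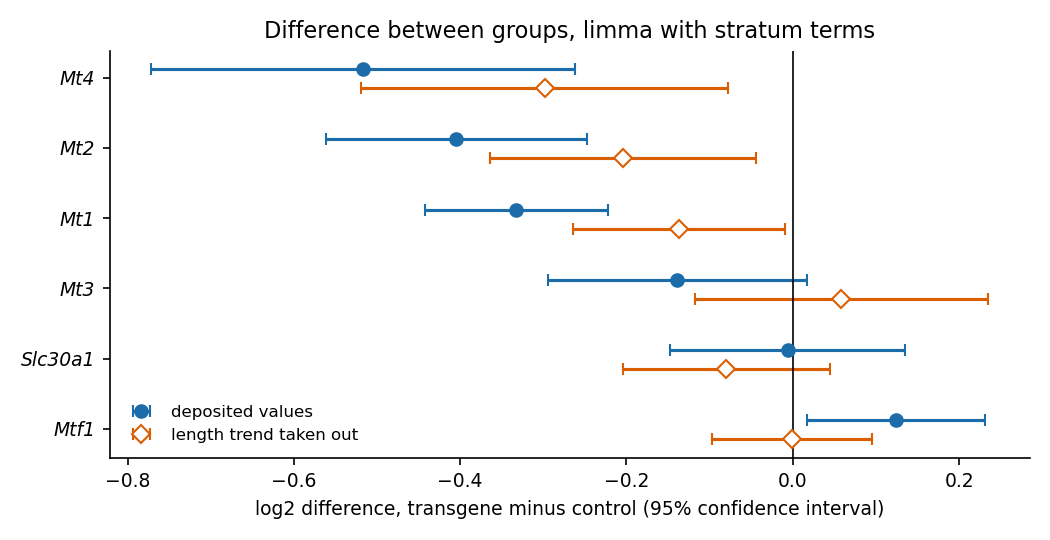
Log2 difference of transgene minus control for the 6 genes with its 95% interval, from the values as deposited and with the trend on transcript length taken out. As deposited, the intervals of Mt1, Mt2, Mt4 and Mtf1 exclude 0. With the trend taken out, the differences shrink to -0.14 for Mt1, -0.20 for Mt2 and -0.30 for Mt4, and that of Mtf1 to -0.00.

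In the authors' deposited table of their own comparison, which lists 981 genes (4.78% of the symbols, 2.69% as lower), Mt1, Mt2 and Mt4 are listed as lower. The authors' deposited table gives Mt1 a log2 fold change of -0.40 (SE 0.07, adjusted p = 1.86e-05) and Mt2 one of -0.45 (SE 0.09, adjusted p = 7.09e-05). For Mt4 the authors' deposited table gives -0.51 (SE 0.11, adjusted p = 0.000285). The authors' deposited table does not list Mt3, Mtf1 or Slc30a1.

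The 4 metallothioneins have short transcripts, and Slc30a1 and Mtf1 have long ones. In order of length, the log2 differences were -0.52 for Mt4, -0.40 for Mt2, -0.14 for Mt3 and -0.33 for Mt1. Those of the longer Slc30a1 and Mtf1 were -0.01 and 0.12. The differences rose with length except between Mt3 and Mt1, whose lengths are close. The principal transcripts are 398 bases long for Mt4, 511 for Mt2, 536 for Mt3 and 549 for Mt1, against 5244 for Slc30a1 and 7631 for Mtf1, where the median tested gene has 3007. Among the 275 tested genes of up to 700 bases, 91.3% had a negative difference, the median log2 difference was -0.16, and 10.9% were called lower. In 34.9% of these short genes all transgene libraries lay below all controls. Among tested genes over 4000 bases the median was 0.08 and 18.9% were negative. Within the 275 short genes, 9 had a more negative difference than Mt4, 16 than Mt2, 30 than Mt1 and 163 than Mt3. Mt4, Mt2 and Mt1 thus lay toward the lower end of the short genes and Mt3 near their middle.

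With the trend on log2 transcript length taken out of each library, the log2 difference was -0.14 for Mt1 (95% interval -0.26 to -0.01, adjusted p = 0.28) and -0.20 for Mt2 (-0.36 to -0.04, adjusted p = 0.212). It was -0.30 for Mt4 (-0.52 to -0.08, adjusted p = 0.194). Mt3 then stood at 0.06, Mtf1 at -0.00 and Slc30a1 at -0.08. None of the 6 was called, at a background of 0.0762% of 14438 genes (0.0346% as lower, 0.0416% as higher), and 3 of the 6 (Mt1, Mt2 and Mt4) had an unadjusted p under 0.05 by limma, as had 16% of the 14438 genes (7.94% lower, 8.03% higher). With group as the only term on those values, Mt2 (adjusted p = 0.0352) and Mt4 (0.0311) passed and Mt1 (0.0562) did not, at a background of 13.7% (6.95% as lower, 6.74% as higher). What moved the short transcripts was not tested.

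**Figure D4:**
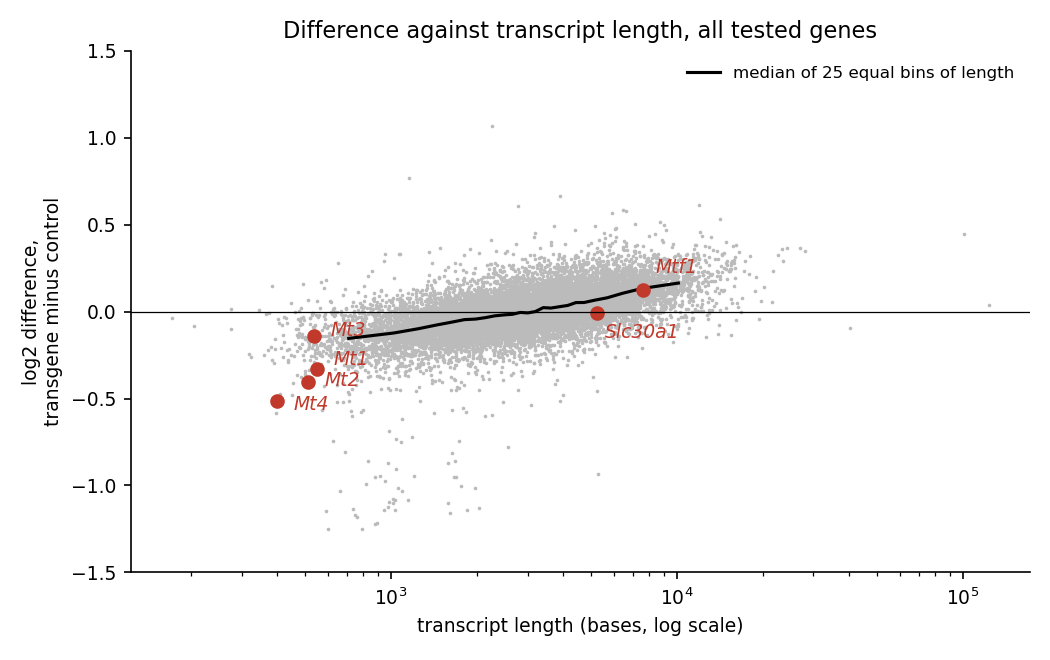
Log2 difference of transgene minus control against transcript length in bases (log axis) for the tested genes (grey), with the 6 genes named and a line through the medians of equal-sized bins of length. The 4 metallothioneins lie at the short end, where most differences are negative, and Mtf1 and Slc30a1 lie among the long transcripts, where most are positive. The axis leaves out 1 gene, Bmi1.

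Levels were compared between genes only after division by transcript length, as log2 level per kilobase. In the controls the order was Mt4 at 15.18, Mt2 at 13.15, Mt1 at 12.35, Mt3 at 8.68, Slc30a1 at 8.02 and Mtf1 at 6.79. Neighbours in that order were further apart than the SD between controls of either gene. The transgene libraries kept the order, at 14.66, 12.74, 12.02, 8.54, 8.01 and 6.92. Mt4 was thus the leading metallothionein transcript of the tongue in both groups, and the brain isoform Mt3 was the lowest of the 4.

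Ratios within a library compare members without a scaling between libraries. The log2 level of Mt2 over that of Mt1 ranged from 0.66 to 0.72 in the controls and from 0.45 to 0.69 in the transgene libraries. Its difference of -0.07 did not pass, with an exact permutation p of 0.111 (0.148 after Benjamini-Hochberg adjustment over the 4 ratios tested). Within strata its exact permutation p was 0.05, the smallest possible (0.0667 adjusted). The Mt4 to Mt1 ratio was also lower in the transgene group on average, at 2.18 against 2.36, with an adjusted exact permutation p of 0.159, and it moved by 0.17 in stratum 1 and by -0.33 in stratum 2. Slc30a1 rose relative to Mt1, from -1.08 ± 0.09 (SD, n = 5) to -0.75 ± 0.13 (SD, n = 4), a difference of 0.33 with an adjusted exact permutation p of 0.0159. Mtf1 rose relative to Mt1 by 0.46, from -1.76 to -1.30, with the same adjusted exact permutation p of 0.0159. Both ratios stood higher in all 4 transgene libraries than in all 5 controls. Within strata both adjusted p-values were 0.0667, from the smallest p that 20 splits allow. Mt1 alone already separated the groups, at -0.33, while Slc30a1 stood at -0.01 and Mtf1 was higher without overlap. The p-values of these ratios thus restate the results of the single genes and add no independent evidence. Both ratios set a long transcript against a short one, and the trend with length moves them in the same direction.

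The 4 metallothionein genes lie next to each other on chromosome 8, in the order Mt4, Mt3, Mt2, Mt1, so their neighbours were read as well. On the Mt1 side, the nuclear pore gene Nup93 had a log2 difference of 0.07 (SE 0.05, adjusted p = 0.423) and the endoplasmic reticulum stress gene Herpud1 one of -0.03 (SE 0.05, adjusted p = 0.782). On the Mt4 side, the ciliary gene Bbs2 had -0.05 (SE 0.06, adjusted p = 0.658). Beyond it among tested genes lay Ogfod1 at 0.10 (SE 0.06, adjusted p = 0.351) and Nudt21 at -0.17 (SE 0.05, adjusted p = 0.0909). All transgene libraries of Nudt21 were below all controls, as for 11.6% of tested genes. Bbs2, Ogfod1 and Nudt21 were named for their position after their values were seen. None of these flanking genes passed, nor did Mt4 and Mt3 within the cluster. The neighbours' transcripts are longer than those of the metallothioneins. They have 2928 bases in Nup93, 1952 in Herpud1, 3064 in Bbs2, 5310 in Ogfod1 and 5010 in Nudt21.

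The remaining genes of zinc transport showed no call. Counts at an unadjusted p under 0.05 are given for the lists below, and over all tested genes 23% met that threshold (11.8% lower, 11.2% higher). Among the exporters of the Slc30a family beside Slc30a1, 6 of 9 were tested, none was called by limma and none had an unadjusted p under 0.05. Their median log2 difference was -0.04, and the largest was that of Slc30a5, an exporter into the secretory pathway, at -0.10 (adjusted p = 0.235). Slc30a3, Slc30a8 and Slc30a10 had mean levels under the floor for testing. Among the importers of the Slc39a family, 12 of 14 were tested, none was called and 1 had an unadjusted p under 0.05, with a median of -0.01. That gene was Slc39a14, a zinc and iron importer induced in inflammation, at 0.19 (SE 0.06, adjusted p = 0.117), and its transgene libraries were all above the controls. Slc39a5 was listed at 0 and Slc39a12 lay under the floor. With group as the only term, 1 exporter was called lower and 1 importer higher.

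Among 6 genes reported as Mtf1 targets beside the members, none was called by limma and 1 had an unadjusted p under 0.05, with a median of 0.02. The list was read without regard to the direction in which Mtf1 acts on each gene, so its median cannot show a response to Mtf1. Gclc and Slc39a10 of this list also stand in the lists of oxidative stress and zinc importers. The gene under 0.05 was the selenoprotein gene Sepw1, which had the largest difference, at -0.23 (SE 0.09, adjusted p = 0.167). Copper is the other metal that metallothioneins hold, and of 12 genes of copper handling none was called, while 2 higher and 4 lower had an unadjusted p under 0.05. Their median was -0.13 as deposited and -0.00 once the length trend was removed, and the largest difference was 0.28 for the copper-exporting ATPase Atp7a (adjusted p = 0.147). Of 14 genes of iron handling none was called and the median was 0.00, with 2 higher and 2 lower at an unadjusted p under 0.05. The transferrin receptor Tfrc, which brings iron into the cell, had the largest difference at 0.34 (SE 0.09, adjusted p = 0.0788), with all transgene libraries above all controls. In the authors' deposited table Tfrc is listed as higher, at a log2 fold change of 0.36 (adjusted p = 0.0106).

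The stimuli known to induce Mt1 and Mt2 were followed through other genes that respond to them. Of 12 glucocorticoid-responsive genes none was called by limma, 1 had an unadjusted p under 0.05 and the median log2 difference was -0.06. The largest difference was -0.42 for the transcription factor gene Cebpd (SE 0.17, adjusted p = 0.181), and its groups overlapped. Of 12 genes of the oxidative stress response driven by Nrf2, 1 was called lower, with 4 lower at an unadjusted p under 0.05 and a median of -0.01. The called gene was Gpx2, an epithelial glutathione peroxidase, which fell by 0.37 on the log2 scale (difference -0.37, SE 0.05, adjusted p = 0.0264). With the length trend taken out no gene of that list was called, and 3 had an unadjusted p under 0.05. Over all tested genes 1.66% were called, against 0 of 6, 0 of 12, 0 of 6, 0 of 12, 0 of 14, 0 of 12 and 1 of 12 in these lists in the order given.

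**Figure D5:**
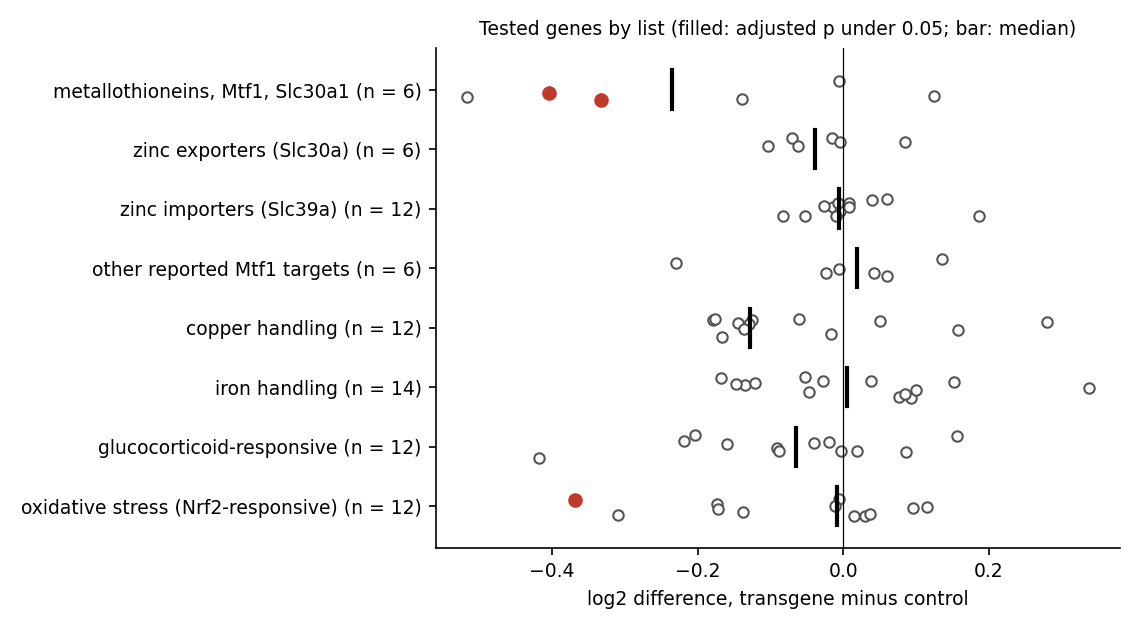
Log2 difference of transgene minus control for each tested gene, in rows for the 6 genes described here and 7 lists of related genes, with the median of each row as a bar and called genes filled. The row of the 6 genes has a median of -0.24 and 2 called genes, and of the other rows only that of oxidative stress has a called gene, Gpx2.

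Markers of cell types were read beside the metallothioneins, since Mt4 belongs to squamous epithelium and Mt1 and Mt2 are abundant in liver. The tongue's defining markers were present in all libraries. Basal keratinocyte markers had 0 of 8 called, 1 higher at an unadjusted p under 0.05, and a summed log2 level of 17.00 to 17.23 in the controls and 16.91 to 17.10 in the transgene libraries. Suprabasal and cornified keratinocyte markers had 0 of 17 called, 4 lower at an unadjusted p under 0.05, and summed levels of 19.91 to 20.32 against 19.83 to 20.27, which overlapped. The largest difference of that list was -0.39 for keratin 10 (Krt10, adjusted p = 0.127). That of the basal list was 0.19 for the integrin gene Itga6 (adjusted p = 0.365).

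Hard keratins, which the tongue makes in its filiform papillae, had 6 of 11 called lower, against 1.15% of all tested genes. All 11 were negative, with a median log2 difference of -1.003. No call was kept when any of controls 2 to 5, transgene 2 or transgene 3 was left out. Krt85 fell by 1.08 (difference -1.08, SE 0.17, adjusted p = 0.0407) and Krt31 by 1.10 (difference -1.10, SE 0.20, adjusted p = 0.0418). Their summed log2 level was 14.75 to 15.06 in the controls and 13.77 to 14.60 in the transgene libraries, without overlap. Krt34, with the largest difference of the list, fell by 1.16 (difference -1.16, adjusted p = 0.0436) and Krt33b by 0.87 (difference -0.87, adjusted p = 0.0427). With the length trend taken out their median was -0.91, none of the 10 with a known transcript length was called (adjusted p from 0.0811 to 0.128), and all 10 had an unadjusted p under 0.05. The authors' deposited table gives smaller falls, with log2 fold changes of -0.583 for Krt31, -0.485 for Krt34 and -0.582 for Krt33b. It does not list Krt85. The part of the hard keratins in the differences of Mt1, Mt2 and Mt4 was not tested.

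Of 10 transcripts of hepatocytes and plasma proteins, all 10 were in the table and none was at 0, but 3 reached the floor for testing. Albumin (Alb) fell by 1.13 (difference -1.13, SE 0.13, adjusted p = 0.0221) and Apoa2 by 0.34 (difference -0.34, SE 0.06, adjusted p = 0.0418). The authors' deposited table lists neither Alb nor Apoa2. With the length trend taken out the difference was -1.09 for Alb (adjusted p = 0.0468) and -0.14 for Apoa2 (adjusted p = 0.494), so the call of Apoa2 was lost. All 7 under the floor had every transgene library below every control, as had 3.38% of the 2958 varying genes under the floor. Levels that low hardly varied between libraries. The summed log2 level of the list was 7.46 to 7.81 in the controls and 6.86 to 7.09 in the transgene libraries. Their part in the differences of Mt1 and Mt2 was not tested.

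Among markers of the other cell types of the tongue, 1 gene was called. Skeletal muscle had 0 of 7 called and 2 lower at an unadjusted p under 0.05, and its summed log2 levels overlapped, at 19.93 to 20.08 in the controls and 19.93 to 20.05 in the transgene libraries. The largest difference in muscle was 0.23 for the myosin gene Myh4 (adjusted p = 0.25). Fibroblast and endothelial markers had 0 of 6 called each, with medians of 0.32 and 0.22 and 4 higher at an unadjusted p under 0.05 in each. Their transcripts are long, and removing the length trend gave medians of 0.22 and 0.16, with 1 and 3 genes at that threshold. The largest differences were 0.57 for the collagen gene Col1a1 (adjusted p = 0.135) and 0.39 for the endothelial growth factor receptor gene Kdr (adjusted p = 0.108). Of 5 macrophage and leukocyte markers tested, 1 was called and 2 were higher at an unadjusted p under 0.05. Their median was 0.05. The called gene was Csf1r, the receptor of macrophage growth factor, which rose by 0.27 (SE 0.05, adjusted p = 0.0418). With the length trend taken out its difference was 0.21 and the call was lost (adjusted p = 0.0872). Adipocyte markers had 0 of 4 called and none at an unadjusted p under 0.05, and Schwann cell markers 0 of 5 called and 1 higher at that threshold. Their largest differences were 0.08 for the lipid droplet gene Plin1 (adjusted p = 0.37) and 0.20 for the transcription factor gene Sox10 (adjusted p = 0.306).

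The genes whose levels followed each metallothionein most closely over the 9 libraries were read as a description, since the libraries share their groups and a spread of reduced dimension. Over 0.9 in Pearson's r with Mt1 were 3.2% of the tested genes, 2.56% with Mt2 and 2.98% with Mt4. Those nearest to Mt1 were the GTP-binding gene Drg2 (r = 0.991, and 0.906 for deviations from group means), 3110007F17Rik, Zfp472, the ribosome maturation gene Sbds and the protein modifier gene Sumo3. Those nearest to Mt2 were the polyamine oxidase gene Paox (r = 0.994, and 0.968 for deviations), Rmnd5b, the ubiquitin ligase gene Siah2, Mvb12a and Yipf2. Those nearest to Mt4 were Agap3 (r = 0.996, and 0.981 for deviations), Gngt1, Cited4, the dynactin subunit gene Dctn6 and Hsf5. Of these 15 genes, Mvb12a was called, with a log2 difference of -0.26 (adjusted p = 0.042). None is a gene of metal handling in the lists above.

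Among the members themselves, Mt2 followed both Mt1 (r = 0.95 over 9 libraries) and Mt4 (r = 0.94). For deviations from the group means these values were 0.49 and 0.70, and that of Mt1 with Mt4 was -0.19. The values of Mt2 depended on single libraries. Without transgene 3, that of Mt2 with Mt4 was 0.07 and that of Mt2 with Mt1 was 0.92. Without transgene 2 they were 0.79 and 0.24. That of Mt1 with Mt4 stayed negative, at -0.33 to -0.06. Mtf1 and Slc30a1 had an r of 0.36 over the 9 libraries and of 0.86 for deviations from the group means, where leaving out single libraries gave 0.85 to 0.97. These values describe 9 libraries, and no difference between correlations was tested.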

How the data were processed

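RNA of 9 tongue libraries (5 control, 4 transgene) was read as stranded mRNA, 50 bases from 1 end, per the labels' protocols. TopHat2, HTSeq and DESeq2 were used with build mm9, per the submitters' processing notes, which give no versions or settings. What the authors deposited are log2 normalized levels and no read counts, so depth and counting error are unknown, and the change of a low gene may be understated. Their own comparison was deposited too, with a log2 fold change, a linear ratio, a mean normalized signal, a p-value (raw and adjusted) and a score for each test, per the file headers.

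Levels were tested with limma 3.58.1 in R 4.3.3 (moderated test, intensity trend, 5 residual degrees of freedom) and tested first on simulated data. 1 row without a gene name and 3064 genes at exactly 0 in every library were left out. Stratum 3 holds no transgene library, so the strata carry 29.4%, 70.6% and 0% of the weight of the group difference. Transcript lengths came from GENCODE M21 for 17366 of 17448 varying genes. The length trend was a lowess curve (span 0.3) of each library's deviations from the gene means.

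The members, lists and tests were chosen with earlier results of these data known, so no pattern here is independent support. Named genes were the 6 members, and of each list the called genes (at most 4 by adjusted p) and the largest difference. Also named were the 5 genes most correlated with Mt1, Mt2 and Mt4, and the 2 tested genes on each side of Mt1. Bbs2, Ogfod1 and Nudt21 were added after their values were seen. Sequences were matched by symbol in RefSeq (6 of 6 promoters) and GENCODE. Alternatives were the group as the only term, other floors, equal medians, no variance trend, the length trend taken out, single strata and each library left out.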

Additional observations from a re-analysis of the deposited data

Results flagged for a closer look

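The log2 ratio of Mt2 to Mt1 in transgene replicate 3 was 0.45, apart from the other 3 transgene libraries, whose highest value was 0.69. Its gap to the nearest of them was 0.864 of the group's range, above the 95% critical value of Dixon's test for 4 samples. It was the only such value among 20 tested (the 6 genes and 4 ratios in each group), and chance flags about 1 in 20. The same library had the highest Bmi1 level (14.87) and the lowest Mt2 and Mt4 of its group, while its Mt1 was not the lowest. Transgene 1 had the next highest Bmi1 (12.49) and the highest Mt4 of the group (13.49). A relation to the Bmi1 level was not tested. Without transgene 3 the log2 difference of Mt2 was -0.35 with an adjusted p of 0.056.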

How the results depend on the processing

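The number of genes called among all tested, 240, became 3537 with group as the only term, 152 with no floor, 733 in stratum 2 alone, 11 with the length trend taken out and 1976 with that and group alone (added after seeing the data). Leaving out single libraries gave 0 to 1840. It was 0 without control 3 or transgene 2, where 2291 and 2568 genes had an unadjusted p under 0.05 by limma, 1 without control 2, 9 without control 4 or 5, 31 without transgene 3, and 1840 and 1835 without control 1 or transgene 1. With the length trend taken out, Mt1 was -0.14 and Mt2 -0.20, neither called, and Mt3 turned to 0.058 and Mtf1 to -0.0013 under both fits. Mt1 at -0.14 missed the threshold with group alone too. Mt4 passed with group alone (-0.52), with that and the length trend taken out (-0.30) and in stratum 2 alone (-0.65), and was -0.20 in stratum 1. Mtf1 passed with group alone (0.12) and was 0.082 in stratum 1. Slc30a1 was 0.031 in stratum 2 and -0.095 in stratum 1. Without single libraries the differences were -0.37 to -0.31 for Mt1, -0.45 to -0.35 for Mt2, -0.17 to -0.095 for Mt3, -0.65 to -0.41 for Mt4 (called without control 1 or transgene 1), 0.084 to 0.15 for Mtf1 and -0.062 to 0.031 for Slc30a1. The cause was not tested. Of 289 counts of calls in the lists under the alternatives, 214 were within 1.5 times the main count and 75 were not. No paired analysis was possible because the replicate numbers follow accession order and pair no libraries.

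The strata, whose origin is unknown, limit all tests, which have 5 residual degrees of freedom, and values before their removal were not analysed here. Depth is unknown.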
